A study of Homo sapiens with 6 samples.

Results

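The genes described here encode 10 proteins known as m6A readers, out of 56638 gene symbols with read counts in HCT116 cells, a human colorectal carcinoma line. They were chosen by name, as the YTH-domain proteins YTHDF1, YTHDF2, YTHDF3, YTHDC1 and YTHDC2, the IGF2BP proteins IGF2BP1, IGF2BP2 and IGF2BP3, and the nuclear proteins HNRNPA2B1 and HNRNPC. RNA-seq libraries came from 3 wild-type (WT) and 3 METTL3-knockout (METTL3-KO) samples, all grown in the same medium with serum and all between passages 16 and 19. The knockout was made with a lentiviral CRISPR-Cas9 vector and puromycin selection, and the methods describe a single monoclonal line, so the loss of METTL3 and the history of that clone cannot be told apart. The labels name no treatment in either group.

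N6-methyladenosine (m6A) is placed on nascent mRNA by a nuclear complex with METTL3 as its catalytic subunit, and readers are the proteins that bind methylated RNA and pass the mark on to splicing, export, translation or decay. YTH-domain proteins hold the methylated base in a pocket of aromatic residues, whereas IGF2BPs bind RNA through KH domains and are known for protecting mRNA from decay. HNRNPA2B1 and HNRNPC bind nuclear RNA, HNRNPC at uridine tracts that methylation nearby can uncover. In the study, the samples served to find transcripts that depend on METTL3, and the comparison below asks whether the mRNAs of the readers themselves differed between METTL3-KO and WT cells.

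METTL3 was checked first. It stood at 30.6, 30.2 and 29.2 CPM (counts per 1e6 counts of the library, after TMM scaling) in WT and at 7.26, 7.69 and 6.89 CPM in METTL3-KO samples, 24.3% of WT in edgeR's fit (adjusted p = 1.59e-07 by its quasi-likelihood test with Benjamini-Hochberg adjustment). The samples are called METTL3-KO here because their titles say so. The names of the deposited files carry an abbreviation, SiM3, that could be read as a knockdown, and the level of METTL3 mRNA does not settle which it was. If it was a knockdown, the limit of a single clone would not apply. Libraries held 20936091 to 30142144 counts on genes. In bulk RNA, fewer cells that express a gene and less of its RNA per cell cannot be told apart. All 12 colorectal epithelial markers that were looked up, EPCAM and KRT8 among them, exceeded 1 CPM in every sample. PECAM1, KDR, COL1A2 and COL3A1, markers of endothelial cells and fibroblasts, had no count, but other markers of these cells had some. The 4 endothelial markers summed to 0 to 0.0938 CPM in WT and to 0.0663 to 0.182 CPM in METTL3-KO samples. The fibroblast marker LUM ran from 0.234 to 2.55 CPM over all samples. Of 5 blood cell markers, CD14 exceeded 1 CPM in every sample (5.11 to 9.95 CPM), and their sum ran from 5.49 to 6.90 CPM in WT and from 6.47 to 10.7 CPM in METTL3-KO samples. The summed epithelial markers ran from 6134 to 7602 CPM in WT and from 9164 to 10099 CPM in METTL3-KO samples, and the 6 fibroblast markers, of which only COL1A1 exceeded 1 CPM in every sample, from 4.92 to 6.74 and from 8.86 to 9.86 CPM. The part of these differences in the results was not tested. The samples numbered 3 stood apart. Against the mean of its own group, WT replicate 3 gave more counts to long transcripts (0.116 on the log2 scale per doubling of length) and METTL3-KO replicate 3 fewer (-0.0691), while the other samples lay between -0.0595 and 0.0398. Values are therefore also given without both of these samples, and after a correction of every library for the length and GC content of transcripts.

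Per kilobase of exon, HNRNPA2B1 was the most abundant reader mRNA, at 128 ± 4.07 RPKM in WT cells (mean ± SD, n = 3 here and throughout), followed by HNRNPC at 59.6 ± 3.07. The cytoplasmic reader YTHDF1 came next with 34.5 ± 0.756, then YTHDF2, which hands methylated mRNA to the decay machinery, with 21.4 ± 0.837, and IGF2BP2 with 18.2 ± 0.379 RPKM. The nuclear reader YTHDC1 (16.3 ± 1.57) and YTHDF3 (12.9 ± 1.68) overlapped in their WT ranges, as did YTHDF3 and IGF2BP3 (11.1 ± 1.90). YTHDC2, an RNA helicase with a YTH domain and a role in meiosis, lay lowest of the readers that could be tested, at 4.20 ± 0.540 RPKM. In METTL3-KO cells the order of these means was the same. The order rests on the annotated length, and with the longest transcript as length IGF2BP3 ranked 6, above YTHDC1 and YTHDF3, in WT cells, and YTHDF2 (36.6 ± 0.468 RPKM) lay above YTHDF1 (34.9 ± 0.351) in METTL3-KO cells.

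**Figure D1:**
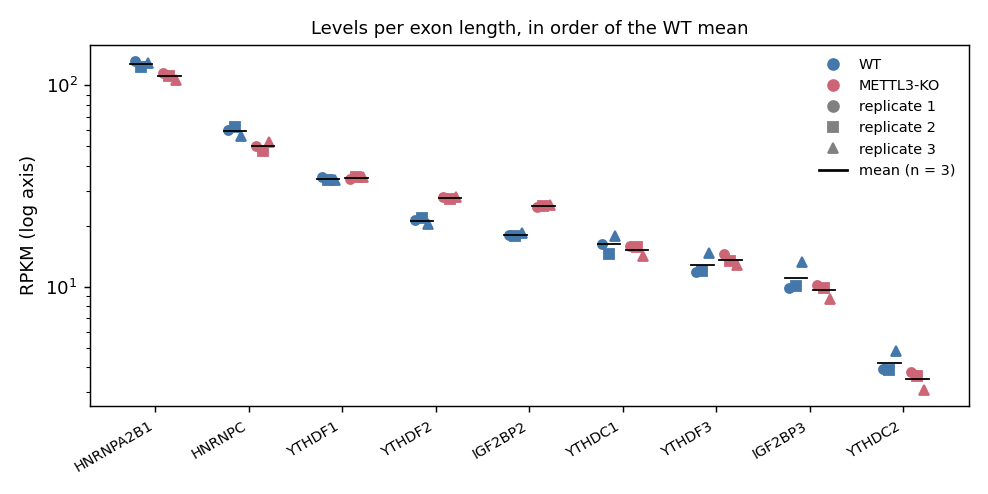
Level of 9 reader mRNAs in RPKM (log axis) in each of 3 WT and 3 METTL3-KO samples, with bars at the group means and marker shapes for the replicate number. HNRNPA2B1 lies highest and YTHDC2 lowest in both groups, and YTHDF2 and IGF2BP2 are the readers whose METTL3-KO points all lie above WT.

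IGF2BP1, an oncofetal member of its family, was close to undetected. Its counts were 3, 0 and 0 for WT, and 0, 1 and 0 for METTL3-KO. A count of 0 allows up to 3 counts, or 0.0995 to 0.141 CPM depending on the library, so no difference was detectable at this depth. IGF2BP1 was below the count minimum of the test, and an alternative fit that kept every gene with at least 1 count did not call it (edgeR adjusted p = 0.609). The other 9 readers passed the count minimum. Among these, 2 were higher and 2 lower in METTL3-KO cells at an edgeR adjusted p under 0.05, where 13.3% of all 22452 tested genes were higher and 13.2% lower. With 9 genes, a single call moves the share by more than the distance to this background. The median log2 fold change of the 9 readers was -0.086, against -0.022 for all tested genes. The samples of the groups did not overlap for 2 readers that lay higher and 3 that lay lower in METTL3-KO cells, against 20.2% and 20.7% of all tested genes.

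IGF2BP2 (chromosome 3, 185360918 to 185542830 of GRCh37, minus strand) differed most. This reader is known for stabilising methylated mRNA. Its level was 96.9, 94.7 and 98.7 CPM in WT and 133, 134 and 136 CPM in METTL3-KO samples. Every METTL3-KO sample lay above every WT sample, and the replicates of a group were within a few CPM of each other. The log2 fold change was 0.47 (SE 0.0666, edgeR adjusted p = 0.000286), a rise of 38.8%. Without both samples numbered 3 it was 0.47 (edgeR adjusted p = 5.7e-13), in a fit that called 21.4% of its genes higher and 22.7% lower. After the correction for length and GC content it was 0.46 (edgeR adjusted p = 1.42e-05), in a fit that called 16.6% higher and 16.6% lower. The fit of all 6 samples without correction called fewer, 13.3% and 13.2%, so the p-values of the 3 fits are not on a par.

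YTHDF2 (chromosome 1, 29063133 to 29096287, plus strand) rose as well. It was at 80.0, 82.5 and 76.3 CPM in WT and at 104, 102 and 104 CPM in METTL3-KO samples, again without overlap. The log2 fold change was 0.38 (SE 0.0692, edgeR adjusted p = 0.00173), or 29.7% above WT. In the annotation used here, 920 exon bases of YTHDF2 overlap the noncoding gene ENSG00000289291 on the opposite strand, and 2.32% of its stretches of 100 bases also occur in the pseudogene YTHDF2P1. Neither had counts of its own under these names, and the strand setting of the counting was not given in the sources used here, so reads in the overlap cannot be assigned to YTHDF2 with certainty. Both YTHDF2 and IGF2BP2 stayed past the threshold in each of the 16 alternative fits made for them, with log2 fold changes from 0.34 to 0.41 and from 0.46 to 0.49.

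The paralogs of YTHDF2 did not pass the test. YTHDF1 (chromosome 20, 61826781 to 61847491, minus strand), best known for promoting translation of methylated mRNA, was at 113, 109 and 109 CPM in WT and at 110, 112 and 112 CPM in METTL3-KO samples. Its log2 fold change was 0.015 with a 95% interval from -0.13 to 0.16, the smallest difference among the readers. YTHDF3 (chromosome 8, 64081112 to 64125344, plus strand), which is described as working with both paralogs, was at 73.1, 73.8 and 91.4 CPM in WT and at 89.9, 83.4 and 78.8 CPM in METTL3-KO samples. Here the samples numbered 3 lay at the far ends, the WT one above all METTL3-KO samples and the METTL3-KO one lowest in its group. The log2 fold change was 0.082 (95% interval -0.13 to 0.29, edgeR adjusted p = 0.574). Without both samples numbered 3 it was 0.24 and passed (edgeR adjusted p = 6.45e-05), in a fit that called 21.4% of its genes higher and 22.7% lower. With the correction for length and GC content it was 0.093 (edgeR adjusted p = 0.3).

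**Figure D2:**
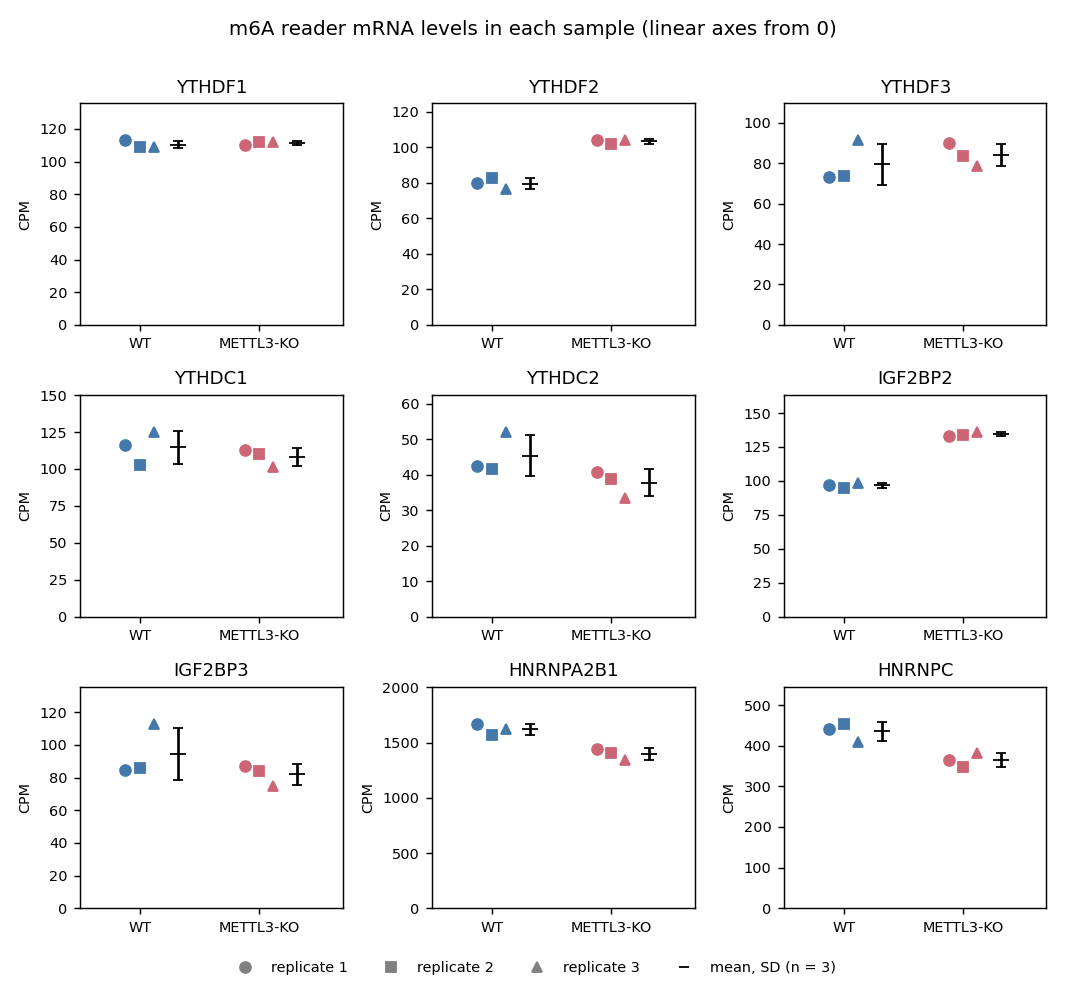
CPM of 9 reader mRNAs in each sample (linear axes that start at 0), WT in blue and METTL3-KO in red, with mean and SD of 3 samples in black. YTHDF2 and IGF2BP2 lie higher and HNRNPA2B1 and HNRNPC lower in every METTL3-KO sample, and in YTHDF3, YTHDC1, YTHDC2 and IGF2BP3 the triangles of replicate 3 lie highest in WT and lowest in METTL3-KO.

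YTHDC1 (chromosome 4, 69176105 to 69215808, minus strand), the nuclear reader that acts in splicing and export, was at 116, 103 and 125 CPM in WT and at 113, 110 and 101 CPM in METTL3-KO samples. The ranges overlapped, and the log2 fold change of -0.086 had a 95% interval from -0.27 to 0.10 (edgeR adjusted p = 0.507). YTHDC2 (chromosome 5, 112849391 to 112930982, plus strand) was at 42.4, 41.6 and 52.0 CPM in WT and at 40.8, 38.9 and 33.4 CPM in METTL3-KO samples. These ranges did not overlap, but only by a small margin outside the samples numbered 3, and the log2 fold change of -0.26 missed the threshold (SE 0.106, edgeR adjusted p = 0.0913). It was -0.075 without both samples numbered 3 (edgeR adjusted p = 0.346) and -0.27 with the correction for length and GC content, where it passed (edgeR adjusted p = 0.00494). That corrected fit called 16.6% of all genes lower and 16.6% higher.

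IGF2BP3 (chromosome 7, 23349828 to 23510110, minus strand), the paralog of IGF2BP2 that is often re-expressed in tumours, was at 84.6, 86.0 and 113 CPM in WT and at 87.0, 84.3 and 74.7 CPM in METTL3-KO samples. Again the samples numbered 3 held both extremes. The log2 fold change was -0.21 (95% interval -0.45 to 0.038, edgeR adjusted p = 0.205), and without both of these samples it was 0.0054 (95% interval -0.092 to 0.10). Exons of IGF2BP3 and of MALSU1 on the opposite strand share 1521 bases in the annotation used here. MALSU1 had a log2 fold change of -0.16 (edgeR adjusted p = 0.382). With YTHDF3, YTHDC1 and YTHDC2, IGF2BP3 makes 4 readers in which replicate 3 was highest of the WT and lowest of the METTL3-KO samples. The longest annotated transcripts of these 4 run from 4274 to 6708 bases, against 2825 for YTHDF2, 3198 for YTHDF1, 4283 for IGF2BP2 and 4501 for HNRNPC. HNRNPA2B1, without this pattern in WT, has one of 6718 bases. The part of transcript length in this spread was not tested beyond the correction above.

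**Figure D3:**
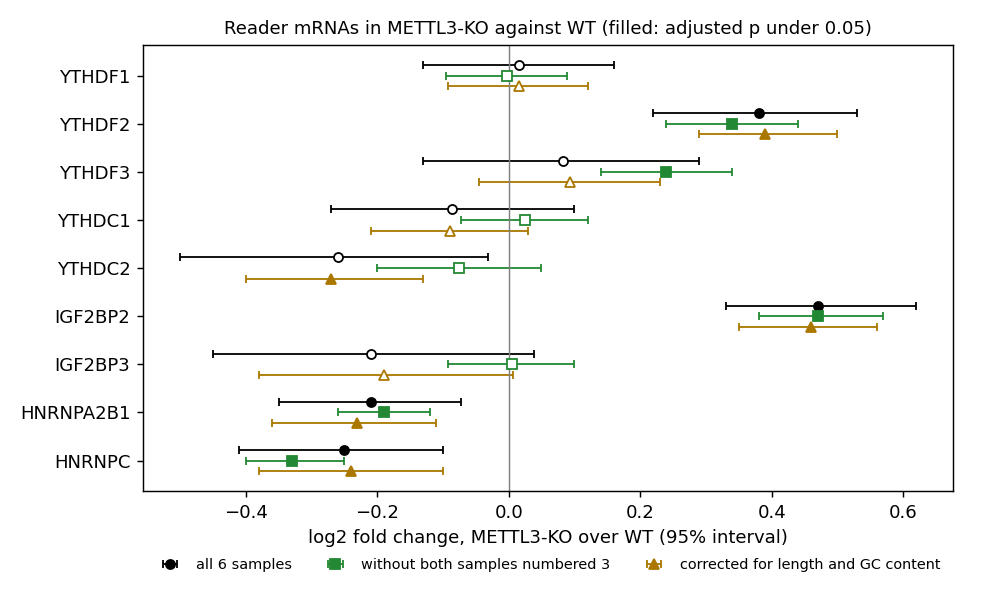
Log2 fold change of METTL3-KO over WT with 95% interval for 9 readers, from all 6 samples (black), without both samples numbered 3 (green) and with the correction for length and GC content (brown). Filled symbols mark an adjusted p under 0.05, reached in all 3 fits by YTHDF2, IGF2BP2, HNRNPA2B1 and HNRNPC, and in 1 fit each by YTHDF3 and YTHDC2.

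Both hnRNP readers fell. HNRNPA2B1 (chromosome 7, 26210771 to 26241149, minus strand), which acts in splicing and in the processing of primary microRNAs, was at 1671, 1569 and 1622 CPM in WT and at 1446, 1405 and 1341 CPM in METTL3-KO samples. The groups did not overlap, and the log2 fold change was -0.21 (SE 0.0646, edgeR adjusted p = 0.029), a decrease to 86.3% of WT. HNRNPA2B1 shares exon sequence on opposite strands with NFE2L3 over 1207 bases and with CBX3 over 368 bases. NFE2L3 had a log2 fold change of -0.39 (edgeR adjusted p = 0.00105) and CBX3 of -0.20 (edgeR adjusted p = 0.0601). NFE2L3 and CBX3 were counted as genes of their own, unlike the noncoding gene that overlaps YTHDF2. The strand setting was not given, so how reads in these overlaps were counted is not known. The calls of HNRNPA2B1 and HNRNPC were less firm than those of IGF2BP2 and YTHDF2. HNRNPA2B1 no longer passed in 5 of the 6 fits that each left out 1 sample (edgeR adjusted p = 0.0637 to 0.129). Only the fit without WT replicate 3 kept it (edgeR adjusted p = 0.00784). In these 6 fits its log2 fold change lay between -0.24 and -0.18. Without both samples numbered 3 it was -0.19 (edgeR adjusted p = 1e-05), in a fit that called 22.7% of its genes lower and 21.4% higher. With the length and GC correction it was -0.23 (edgeR adjusted p = 0.00722), in a fit that called 16.6% lower and 16.6% higher.

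HNRNPC (chromosome 14, 21677295 to 21737653, minus strand), which packages nascent transcripts, was at 441, 454 and 410 CPM in WT and at 366, 347 and 382 CPM in METTL3-KO samples. All METTL3-KO samples lay below all WT samples. The log2 fold change was -0.25 (SE 0.0714, edgeR adjusted p = 0.0207), or 83.9% of WT. It passed without WT replicate 3 or METTL3-KO replicate 3 and failed without each of the other 4 samples (edgeR adjusted p = 0.0729 to 0.127). Without both samples numbered 3 the log2 fold change was -0.33 (edgeR adjusted p = 1.42e-10), in the fit that called 22.7% of its genes lower and 21.4% higher.

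The counts of HNRNPC cannot be read alone, because the processed pseudogene HNRNPCP2 (chromosome 2, 190788062 to 190788942, plus strand) also held many. It is 98.9% identical to spliced HNRNPC mRNA over its 881 bases, with 10 substitutions and an identical run of up to 172 bases, and the matching mRNA stretch spans 6 exon junctions. A window of 30 bases shows how little separates the pair. It lies in a coding exon at chr14:21698491-21698520 on the minus strand for HNRNPC and at chr2:190788384-190788413 on the plus strand for HNRNPCP2, both in GRCh37, and capitals mark the bases that differ, C14T and A16G counted from the 5′ end of the window.

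HNRNPC: cttttgacttggaCtAtgactttcaacggg
HNRNPCP2: cttttgacttggaTtGtgactttcaacggg

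Counts of HNRNPCP2 were 3894, 3253 and 2755 for WT, and 3355, 2482 and 2855 for METTL3-KO. Set against HNRNPC in the same sample, this was between 30.4% and 32.6% in all 6 samples, 0.318 ± 0.00341 of its counts in WT and 0.316 ± 0.0111 in METTL3-KO. HNRNPCP2 had a log2 fold change of -0.26 (SE 0.0745, edgeR adjusted p = 0.0205), close to that of HNRNPC. With the counts of the pair summed, a step chosen after seeing the data, HNRNPC had one of -0.26 and passed (edgeR adjusted p = 0.0187). How many of the pseudogene's reads stem from HNRNPC mRNA was not tested. The pseudogenes HNRNPCP1 (log2 fold change -0.62, edgeR adjusted p = 0.161) and HNRNPCP7 (-0.33, edgeR adjusted p = 0.7) stayed under 1 CPM in every sample, as did the antisense gene YTHDF3-AS1 (0.27, edgeR adjusted p = 0.701).

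The ratio of a pair of readers within a sample does not depend on how libraries are scaled. IGF2BP2 had 1.15, 1.10 and 0.871 counts per count of IGF2BP3 in WT samples and 1.52, 1.59 and 1.83 in METTL3-KO samples. The ratio was thus 1.59-fold higher in METTL3-KO cells, without overlap. A two-sided exact permutation test, which cannot go lower with 3 samples against 3, gave p = 0.1, and 0.15 after adjustment over 6 pairs. The samples numbered 3 held the lowest WT and the highest METTL3-KO ratio. The difference was 0.67 on the log2 scale, 0.55 without WT replicate 3 and 0.59 without METTL3-KO replicate 3. YTHDF1 had 1.42, 1.32 and 1.43 counts per count of YTHDF2 in WT and 1.06, 1.10 and 1.08 in METTL3-KO samples, a difference of -0.36 on the log2 scale with the same exact permutation p. Per kilobase of exon, YTHDF2 made up 31.1% ± 1.49 of the summed YTHDF mRNAs in WT and 36.4% ± 0.439 in METTL3-KO samples. IGF2BP2 made up 62.2% ± 3.50 and 72.4% ± 1.88 of the summed IGF2BP mRNAs, with replicate 3 lowest in WT (58.2%) and highest in METTL3-KO (74.5%). These shares rest on the annotated length. With the longest transcript as length, IGF2BP2 (22.6 ± 0.472 RPKM) and IGF2BP3 (22.2 ± 3.8 RPKM) overlapped in WT cells. In METTL3-KO cells they were at 31.4 ± 0.448 and 19.2 ± 1.52 RPKM. YTHDF2 over YTHDF3 (difference 0.29) and YTHDC1 over YTHDC2 (0.18) also separated the groups, at the same p. The difference for YTHDF2 over YTHDF3 was 0.15 without WT replicate 3 (exact permutation p = 0.2). HNRNPA2B1 over HNRNPC (0.039) and YTHDF1 over YTHDF3 (-0.072) differed by less than their replicates did (p = 0.6 each, by the same exact permutation). With 3 samples a group, none of these 6 tests could reach 0.05.

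**Figure D4:**
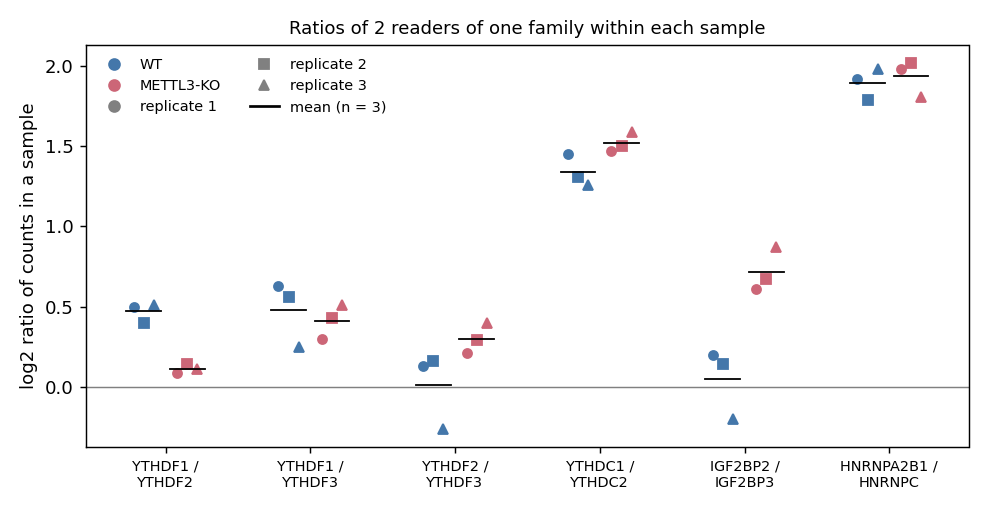
Log2 ratio of the counts of a pair of readers of one family in each sample, WT in blue and METTL3-KO in red, with bars at the means of 3 samples. The groups do not overlap for 4 of the 6 pairs, and IGF2BP2 over IGF2BP3 moves most, from a mean of 0.045 in WT to 0.71 in METTL3-KO.

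Other genes of the m6A pathway were taken from lists of writers and erasers, further proteins described as readers, partners and bound transcripts. Their counts of calls stand against 13.2% lower and 13.3% higher among all tested genes, and with 9 to 21 tested members a list none is called particular. Of 15 writers and erasers, 3 were lower, METTL3 included, and 1 was higher at an edgeR adjusted p under 0.05. RBM15, an adaptor of the methyltransferase complex, rose by 0.94 on the log2 scale (SE 0.154) while its paralog RBM15B had a log2 fold change of -0.47 (SE 0.0728). PCIF1, which methylates the adenosine next to the cap, had one of -0.57 (SE 0.0766). METTL14, the partner of METTL3, did not pass (0.073, 95% interval -0.11 to 0.25), nor did the erasers FTO (0.31, edgeR adjusted p = 0.0576) and ALKBH5 (0.12, edgeR adjusted p = 0.3).

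Of 9 further proteins described as readers, 3 were higher and 1 lower (13.3% and 13.2% of all tested genes). The nuclease-like SND1 rose by 0.67 (SE 0.0764, edgeR adjusted p = 6.47e-05), FXR2 by 0.44 (SE 0.0875) and FXR1 by 0.41 (SE 0.0669) on the log2 scale, while FMR1, of the same family as FXR1 and FXR2, did not pass (-0.052, 95% interval -0.25 to 0.14). RBMX, also called hnRNP G, fell by 0.27 on the log2 scale (SE 0.0672). The median of this list was 0.051.

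Among 21 decay and translation partners of YTHDF2 and YTHDC2, 4 were lower, 1 was higher and 16 did not pass (13.2% of all tested genes were lower and 13.3% higher). CNOT6L and CNOT6, deadenylases of the CCR4-NOT complex that YTHDF2 recruits, had log2 fold changes of -0.79 (SE 0.128) and -0.38 (SE 0.0924), and the CCR4-NOT subunit CNOT3 had one of 0.26 (SE 0.0724). RPP40, a subunit of RNase P and RNase MRP, had one of -0.69 (SE 0.130), at 5.37 CPM in WT. CNOT1, the scaffold through which YTHDF2 binds the complex, averaged 358 CPM in WT samples, against 345 CPM in METTL3-KO samples, and did not pass (-0.055, 95% interval -0.33 to 0.22).

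Of the 15 nuclear and granule partners 14 could be tested, of which 4 were lower, against 13.2% of all tested genes, and 10 did not pass. The splicing factors SRSF3 (log2 fold change -0.46, SE 0.0696) and SRSF10 (-0.29, SE 0.0895), both partners of YTHDC1, and HNRNPA1 (-0.36, SE 0.0708), a relative of HNRNPA2B1, were among the lower ones. The list's median was -0.12.

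Of 10 transcripts described as stabilised by IGF2BPs, 3 were lower and 1 higher, beside 13.2% and 13.3% of all tested genes. TK1 (-0.68, SE 0.0958), HK2 (-0.69, SE 0.133) and SLC2A1 (-0.24, SE 0.0712) were lower, and IGF2, from which the protein family takes its name, rose by 0.55 on the log2 scale (SE 0.0827). The study picked HK2 and SLC2A1 on these samples, so neither their direction nor the count of 3 lower that includes them is independent evidence. The locus of IGF2 also holds the read-through gene INS-IGF2. MYC had a log2 fold change of -0.17 and did not pass (edgeR adjusted p = 0.099).

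**Figure D5:**
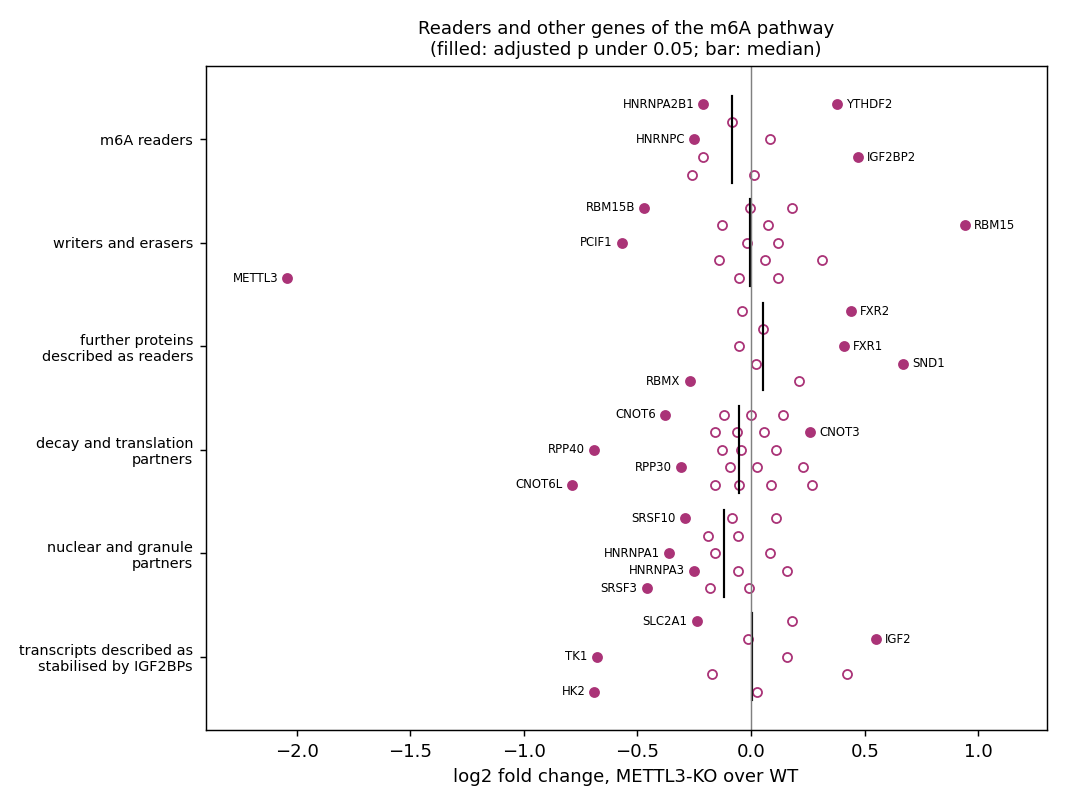
Log2 fold change of METTL3-KO over WT for the readers and for 5 other lists of genes, each point a gene and each bar the list's median. Named, filled points passed an adjusted p of 0.05, with METTL3 farthest to the left at -2.04 and RBM15 farthest to the right at 0.94.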

How the data were processed

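Total RNA of 3 WT and 3 METTL3-KO samples was made into Illumina TruSeq libraries and sequenced as paired ends. The authors mapped reads to hg19 with TopHat 2.0.11 and ran htseq-count in union mode. What they deposited are counts without normalization for 56638 gene symbols. Replicates were taken from the sample titles. The file names give WT samples other numbers and carry NC and SiM3 where the titles have WT and METTL3-KO. These abbreviations are not explained in the sources used here and could be read as a control and a knockdown. The titles were followed. Nothing says that the replicates were separate cultures, so p-values cover only the spread between these samples.

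Genes with under 5 total counts in both groups were removed, following the authors' methods, leaving 22452. Groups were compared by the quasi-likelihood test of edgeR 4.0.16 (R 4.3.3, TMM, two-sided), adjusted by Benjamini-Hochberg over all of these. SE is the fold change divided by the root of F. RPKM is TMM-scaled CPM per kilobase of merged exons (GENCODE v44 on GRCh37, to which 33514 symbols matched). The authors built their transcript index from Ensembl for GRCh37, so the exons they counted can differ from those whose length was used. The limit of up to 3 counts given for IGF2BP1 covers counting error only. The intervals of log2 fold changes use the SE of the fit and so include the spread between samples. Ratios used 0.5 added counts. The edgeR procedure was also run on simulated counts with the same dispersion for all genes and no length trend. That run does not cover the departure of the samples numbered 3. Alternatives were DESeq2 1.42.0, other normalizations and filters, left-out samples, the replicate block, and splines on transcript length and GC content. Named genes were all readers, METTL3, their overlapping genes, antisense genes and pseudogenes with at least 5 counts in either group, and up to 3 members of each list per direction among those that passed. ENSG00000289291, YTHDF2P1, METTL14, FTO, ALKBH5, FMR1, CNOT1 and MYC fall outside this rule and were named for their overlap or role after their values were seen. Members and lists were chosen with earlier results of these data known.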

Additional observations from a re-analysis of the deposited data

How the results depend on the processing

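With 9 readers tested, 2 lower and 2 higher were called by DESeq2, RLE, upper-quartile or no scaling, and filterByExpr. The count of lower readers was 0 with the replicate number as a block, and ran from 0 to 2 with 1 sample at a time left out, while that of higher readers was 2 or 3 in every fit made. Deviations from the group means correlated at -0.585, -0.390 and -0.783 between same-numbered samples, and between -0.546 and 0.719 for the other pairs of samples. Deviations within a group are tied to each other and the samples numbered 3 stood apart. These values therefore cannot decide whether the numbers pair the samples. The block used the numbers of the sample titles, and the file names give the WT samples other numbers. A block by the file numbers was not fitted. With the block, HNRNPA2B1 (log2 fold change -0.21, edgeR adjusted p = 0.173) and HNRNPC (adjusted p = 0.138) did not pass, while IGF2BP2 (0.0113) and YTHDF2 (0.0319) did. In that fit 1719 genes were lower and 1810 higher, against 2959 and 2986 without the block. With the block and the length and GC correction together, HNRNPC did not pass (edgeR adjusted p = 0.0659). HNRNPA2B1 (0.0373), YTHDC2 (0.0296), IGF2BP2 (0.00108) and YTHDF2 (0.00223) did. YTHDF3 passed without WT replicate 3 alone (log2 fold change 0.20, edgeR adjusted p = 0.0408). Without both samples numbered 3 the sign turned for YTHDF1 (-0.0027), YTHDC1 (0.025) and IGF2BP3 (0.0054). Of the ratios, YTHDF1 over YTHDF3 turned to 0.0023 without WT replicate 1, and HNRNPA2B1 over HNRNPC to -0.016 without WT replicate 2 and -0.0023 without METTL3-KO replicate 2. With 1 sample left out, the former ran from -0.19 to 0.0023 and the latter from -0.016 to 0.10. The causes were not tested. YTHDC2 also passed with every gene of at least 1 count kept (edgeR adjusted p = 0.0326), which tested all 10 readers and gave 3 lower ones. Over all alternatives, called members of the other lists ran from 3 to 5 lower and 1 to 4 higher for writers and erasers, 0 to 1 and 3 to 4 for further readers, 2 to 7 and 0 to 5 for decay and translation partners, 2 to 8 and 0 to 1 for nuclear and granule partners, and 2 to 5 and 1 to 4 for IGF2BP transcripts. IGF2BP1 is limited by its depth.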
